A study of Homo sapiens with 6 samples.

Results

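The epithelial and mesenchymal state genes described here are CDH1, EPCAM, KRT8, KRT18, KRT19, CDH2, VIM, SNAI2, ZEB1 and TWIST1. They were chosen by symbol, and all 10 were found among the 58676 gene IDs of the table. RNA was sequenced from a human cell line labelled HCC, and the labels name no line, clone or vector. The knockdown libraries are labelled as carrying a sponge, a transcript with binding sites that takes up a microRNA, and the series title names miR-19a, while the control libraries are labelled as control only. Cells of both groups were grown in DMEM with serum. The groups used were knockdown replicates 1 and 3 and control replicates 1, 2 and 3, and since no label calls the replicates separate cultures, a p-value here measures spread among libraries that may be only technical. Knockdown replicate 2 was left out, because its Spearman rank correlation with the other libraries across genes was 0.017 to 0.019, against 0.82 to 0.89 between the others.

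An epithelial cell is held to its neighbours by cadherins and other junction proteins and is braced inside by keratin filaments. In the epithelial to mesenchymal transition, transcription factors of the SNAI, ZEB and TWIST families repress the E-cadherin gene CDH1, and cells take on vimentin filaments and N-cadherin. The change can be partial, so that one cell carries proteins of both states. Hepatocytes make KRT8 and KRT18, and bile duct cells and liver progenitors also make KRT19 and EPCAM. In epithelial cells, microRNAs of the miR-200 family hold ZEB1 down.

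Sequences were read first, because a sponge acts on transcripts through the binding sites of the microRNA it takes up. The mature strands of miR-19a and miR-19b share 1 seed, bases 2 to 8, shown in capitals. The sequences are those of RefSeq on GRCh38.p14.
hsa-miR-19a-3p: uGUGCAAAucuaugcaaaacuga
hsa-miR-19b-3p: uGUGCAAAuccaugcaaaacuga
A transcript that pairs with this seed holds TTTGCAC. None of the 10 genes holds it on the sense strand of its longest annotated 3' UTR (0 of 10 genes), nor in any other annotated 3' UTR of theirs. The 7 bases occur in the longest 3' UTR of 2603 of 19133 coding genes, 13.6%. Among the further junction, epithelial and mesenchymal genes listed for comparison, 18 of 150 hold it, 12%.

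ZEB1 is the member with the most matches to the miR-200 family. Its 3' UTR of 2549 bases holds CAGTATT, which pairs with the seed of miR-200b, miR-200c and miR-429, at 6 places, and CAGTGTT, which pairs with the seed of miR-141 and miR-200a, at 3. Of all 19133 coding genes, 16.0% hold the first and 18.4% the second. Mature strands with the seed in capitals, and the ZEB1 matches followed by an A, with the match in capitals, show the pairing. The ZEB1 stretches lie on the plus strand of GRCh38, and the last of them matches miR-141.
hsa-miR-200c-3p: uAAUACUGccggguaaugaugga
hsa-miR-141-3p: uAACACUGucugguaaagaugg
ZEB1 chr10:31527621-31527650: gttttatcttatCAGTATTatcactcttat
ZEB1 chr10:31528495-31528524: atttttacctatCAGTATTattttatttct
ZEB1 chr10:31528565-31528594: cttcaaacctggCAGTATTaatacccttct
ZEB1 chr10:31528785-31528814: gatttgatttaaCAGTGTTatgttaacatt
SNAI2 and KRT8 hold 1 CAGTATT each, and the other 7 genes hold neither match. A match is a description of the letters and not evidence of binding. The libraries say little of the miR-200 microRNAs themselves: MIR200A had 1 read in knockdown replicate 1 and 1 in control replicate 1, MIR429 had 1 read in control replicate 1, the host transcript MIR200CHG had 1 read in control replicate 2, and MIR200B, MIR200C and MIR141 had 0 reads in all 5 libraries.

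Levels are given as RPKM, which scales a gene's reads by its exon length and by the reads assigned to all genes. Assigned reads, recovered from the RPKM values, ranged from 1948940 in control replicate 2 to 19605312 in control replicate 3, and control replicate 2 stood apart on the first principal component (66.5% of the variance). The cells expressed epithelial adhesion genes, simple keratins, VIM and CDH2 at once, while ZEB1 was low but detected in all 5 libraries, SNAI2 had 0 to 5 reads a library and TWIST1 had 0. Ordered by the mean of the 5 libraries, KRT8 stood above KRT18, KRT19, VIM, EPCAM, CDH1 and CDH2, with the 3 transcription factors below all of them. The lowest KRT8 value, 554 RPKM, lay above the highest KRT18 value, 511 RPKM, and the lowest CDH1 value, 34.2 RPKM, above the highest CDH2 value, 15.5 RPKM. Ranges overlapped across libraries for KRT18 and KRT19, for KRT19 and VIM, and for EPCAM and CDH1. Within each library KRT18 was above KRT19 and KRT19 above VIM, whereas EPCAM was above CDH1 in 4 libraries and below it in control replicate 2.

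**Figure D1:**
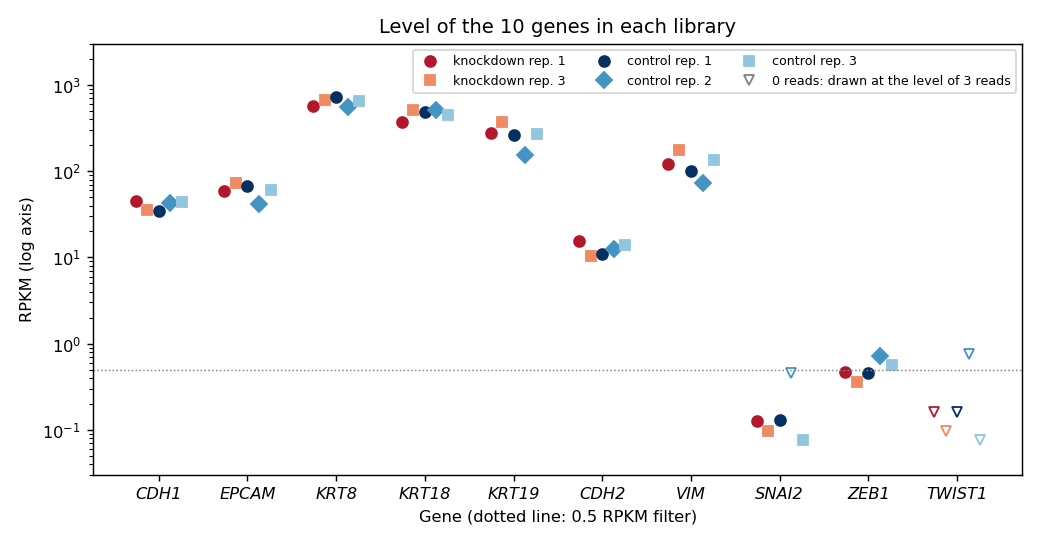
Level of each of the 10 genes in the 2 knockdown and 3 control libraries, in RPKM on a log axis, 1 point per library, with open triangles where a library had 0 reads, drawn at the level that 3 reads would give. The keratins sit at 154 RPKM or more and the 3 transcription factors below 1 RPKM, and the groups overlap for every gene but KRT19.

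CDH1 (ENSG00000039068, chromosome 16 from 68737225 to 68835548), which encodes E-cadherin, the calcium-dependent adhesion protein of epithelial junctions, was at 45.7 and 36.0 RPKM in knockdown replicates 1 and 3, against 34.2, 42.8 and 44.2 RPKM in control replicates 1, 2 and 3. Its highest and second lowest values were those of the 2 knockdown libraries, so the groups overlapped throughout. The log2 difference, on log2(RPKM + 0.5), was 0.01 (SE 0.19, 95% interval -0.47 to 0.50, limma adjusted p = 0.987). CDH1 stood above 92.9% of the genes tested.

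EPCAM (ENSG00000119888, chromosome 2 from 47345158 to 47387601), an adhesion molecule of epithelial and progenitor cells, was at 59.6 and 72.5 RPKM in the knockdown libraries, against 67.3, 41.1 and 60.9 RPKM in the controls. Control replicate 2 was the lowest, and the knockdown values lay on either side of the other controls. The log2 difference was 0.25 (SE 0.26, limma adjusted p = 0.809), and it was 0.04 without control replicate 2.

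KRT8, KRT18 and KRT19 encode keratins of simple epithelia, KRT8 being the type II partner and the other two type I partners of a filament built from one of each. KRT8 (ENSG00000170421, chromosome 12 from 52897187 to 52949954) was at 578 and 667 RPKM in knockdown libraries, against 729, 554 and 660.1 RPKM in controls, with the groups overlapping. KRT18 (ENSG00000111057, chromosome 12 from 52948871 to 52952901) was at 376 and 510.2 RPKM in knockdown libraries, against 489.7, 511 and 449 RPKM in controls. Knockdown replicate 1 was lower than every control, while knockdown replicate 3 was level with control replicate 2. Their log2 differences were -0.05 (SE 0.22, 95% interval -0.62 to 0.51) for KRT8 and -0.14 (SE 0.22, 95% interval -0.69 to 0.41) for KRT18.

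KRT19 (ENSG00000171345, chromosome 17 from 41523617 to 41528308), the keratin that in liver marks bile duct and progenitor cells, was at 281 and 378 RPKM in knockdown libraries, against 262, 154 and 273 RPKM in controls. Both knockdown values lay above all 3 controls, knockdown replicate 1 by a small margin. KRT19 averaged 329 ± 68.6 RPKM in knockdown (SD, n = 2) and 229.8 ± 65.9 RPKM in control (SD, n = 3). The log2 difference of 0.55 (SE 0.32, 95% interval -0.26 to 1.35) did not pass (limma adjusted p = 0.724), and it was 0.28 without control replicate 2 and 0.25 after removal of length and GC trends, an alternative chosen after seeing the data. KRT7, the other keratin of bile duct cells, was far lower and under the filter on low values, with 26 and 40 reads in knockdown libraries (0.683 and 0.643 RPKM), against 10, 0 and 23 reads in controls (0.266, 0 and 0.287 RPKM).

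The balance of the keratins was read from ratios of RPKM within a library. KRT8 stood at 0.880 and 0.751 of KRT18 plus KRT19 in knockdown replicates 1 and 3, against 0.970, 0.833 and 0.913 in controls. KRT18 was 1.34 and 1.35 times KRT19 in knockdown libraries, against 1.87, 3.32 and 1.64 times in controls, so the groups did not overlap. This ratio was chosen after its values were seen, and was not tested.

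Reads on keratin pseudogenes bear on these levels, because processed copies of KRT8 and KRT18 are numerous and close in sequence to their parents. The annotation names 50 KRT8 and 67 KRT18 pseudogenes, of which 43 and 52 had reads. KRT8 pseudogenes took 1.57% and 1.34% of the reads of KRT8 and its copies in knockdown libraries, against 1.65%, 11.7% and 0.613% in controls. For KRT18 these shares were 1.62% and 1.26% in knockdown libraries, against 1.32%, 7.40% and 0.337% in controls. Control replicate 2 was the highest in both and control replicate 3 the lowest, and processed pseudogenes of all kinds took 3.71% of all assigned reads in control replicate 2, against 1.27% and 1.33% in knockdown and 1.29% and 0.658% in the other controls. With pseudogene reads added to their parents, an alternative chosen after seeing the data, KRT8 was at 587 and 676 RPKM in knockdown libraries, against 742, 627 and 664 RPKM in controls. The log2 differences then were -0.10 for KRT8, -0.16 for KRT18 and 0.54 for KRT19. KRT8 and KRT18 are also annotated with 525 bases of overlapping exons on opposite strands, 7.63% of KRT8 and 16.3% of KRT18, and whether counting used strand is not given in the sources used here, so reads there cannot be told apart.

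**Figure D2:**
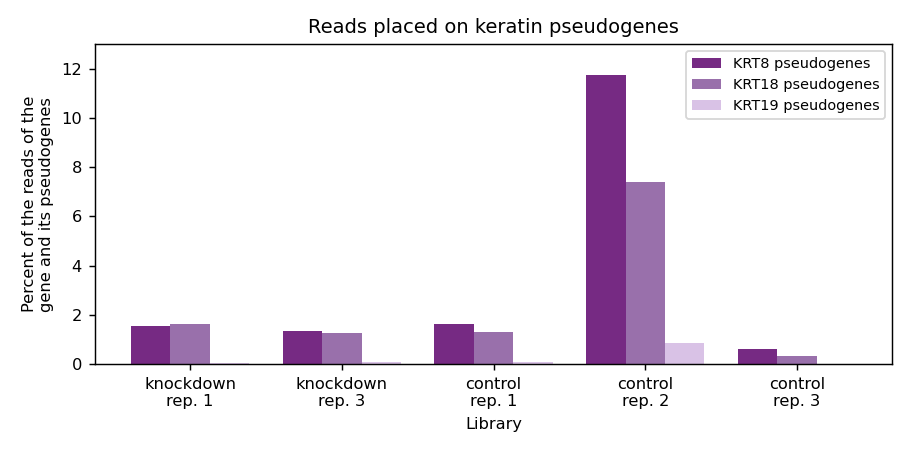
Reads placed on pseudogenes of KRT8, KRT18 and KRT19 as a percentage of the reads of each gene and its pseudogenes, 1 bar per gene and library, knockdown libraries on the left. Control replicate 2 reaches 11.7% for KRT8 and 7.40% for KRT18, where the other 4 libraries lie between 0.337% and 1.65%.

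CDH2 (ENSG00000170558, chromosome 18 from 27950966 to 28177446) encodes N-cadherin, the cadherin of mesenchymal and neural cells that hepatocytes also carry. It was at 15.5 and 10.3 RPKM in knockdown libraries, against 10.9, 12.4 and 14.0 RPKM in controls. The highest and the lowest of the 5 values were those of knockdown replicates 1 and 3. The log2 difference was 0.03 (SE 0.23, 95% interval -0.54 to 0.60, limma adjusted p = 0.974). CDH1 was 2.94 and 3.48 times CDH2 in knockdown replicates 1 and 3, against 3.15, 3.44 and 3.15 times in controls. E-cadherin transcript thus exceeded N-cadherin transcript in all 5 libraries by 2.94 to 3.48 times, per exon length.

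VIM (ENSG00000026025, chromosome 10 from 17228259 to 17237593) encodes vimentin, the filament protein of mesenchymal cells. It was at 121 and 174 RPKM in knockdown libraries, against 100.1, 72.6 and 137 RPKM in controls. Knockdown replicate 3 was the highest and control replicate 2 the lowest, and knockdown replicate 1 lay inside the control range. VIM averaged 148 ± 37.4 RPKM in knockdown (SD, n = 2) and 103 ± 32.1 RPKM in control (SD, n = 3). The log2 difference of 0.54 (SE 0.32, 95% interval -0.26 to 1.34) did not pass (limma adjusted p = 0.725). Without control replicate 2 it was 0.31, and without knockdown replicate 3 it was 0.28. It was larger, at 0.77, without control replicate 3, and 0.80 without knockdown replicate 1. After removal of length and GC trends, an alternative chosen after seeing the data, it was 0.60. Antisense VIM-AS1 shares 641 exon bases with VIM, but it was at 1.03 to 1.62 RPKM. KRT8 exceeded VIM by 4.77 and 3.83 times in knockdown libraries, against 7.29, 7.62 and 4.83 times in controls.

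SNAI2, ZEB1 and TWIST1 encode repressors or regulators that drive the mesenchymal program in many tissues. None reached 0.5 RPKM in 3 libraries, the filter for testing, so they are described by their reads. ZEB1 (ENSG00000148516, chromosome 10 from 31318495 to 31529814), a zinc finger repressor of CDH1, had 38 and 47 reads in knockdown libraries, against 36, 12 and 96 in controls. These are 0.473 and 0.358 RPKM in knockdown, against 0.453, 0.712 and 0.566 RPKM in controls, where knockdown replicate 1 lies above control replicate 1. Summed over libraries, ZEB1 was at 0.401 RPKM in knockdown (exact 95% Poisson interval 0.320 to 0.496) and 0.542 RPKM in control (0.457 to 0.638). The intervals overlap, which is not a test of the difference, and the main fit made none for ZEB1. With 0.5 RPKM asked of at least 2 libraries instead, its log2 difference was -0.23 (SE 0.28, limma adjusted p = 0.845). The Poisson intervals cover counting error only and leave out the spread among libraries, and PCR copies were not marked. Of the 144 control reads, 96 were from control replicate 3.

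SNAI2 (ENSG00000019549, chromosome 8 from 48917604 to 48921740), also known as Slug, had 4 and 5 reads in knockdown libraries, against 4, 0 and 5 in controls. Summed, this is 0.108 RPKM in knockdown (exact 95% Poisson interval 0.0495 to 0.206) and 0.0863 RPKM in control (0.0395 to 0.164). These intervals overlap, which is not a test, and so few reads cannot show a small difference. With no filter beyond a value above 0, the SNAI2 log2 difference was 0.11 (SE 0.13, limma adjusted p = 0.819). TWIST1 (ENSG00000122691, chromosome 7 from 19020991 to 19117672), a helix-loop-helix factor, had 0 reads in all 5 libraries, which allows up to 0.0267 RPKM over the 5 (3 reads). ZEB2, the relative of ZEB1, was at 0.185 and 0.118 RPKM in knockdown libraries, against 0.109, 0.0614 and 0.0875 RPKM in controls. SNAI1, the relative of SNAI2, was at 4.21 and 4.25 RPKM in knockdown libraries, against 4.01, 1.22 and 4.48 RPKM in controls. The knockdown values lay between those of control replicates 1 and 3, and control replicate 2, with 4 reads, was the lowest.

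Across the comparison, 7 of the 10 genes passed the filter and 0 of these 7 were called at a limma adjusted p under 0.05. Over all 15408 genes tested, 0.0% were called, and the lowest adjusted p was 0.71. At an unadjusted p under 0.05, 0 of the 7 were found, against 6.34% of all genes tested, and limma voom on recovered reads also called 0 of them. This depends on the run for VIM. Its unadjusted p was 0.026 in limma voom with sample weights (adjusted p = 0.329) and 0.042 in limma without control replicate 3 (adjusted p = 0.664). The groups did not overlap for 1 of the 7 genes, KRT19, with both knockdown libraries above the controls, which held for 14.3% of all genes tested, and 27.8% did not overlap in either direction. The log2 difference was above 0 for 5 and below 0 for 2, against 50.0% above 0 over all genes, and the median of the 7 was 0.03, against a median of all genes of -0.0002. The widest upper bounds, 1.35 for KRT19 and 1.34 for VIM, show that a change of more than 2-fold in these 2 genes was not excluded by their intervals.

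**Figure D3:**
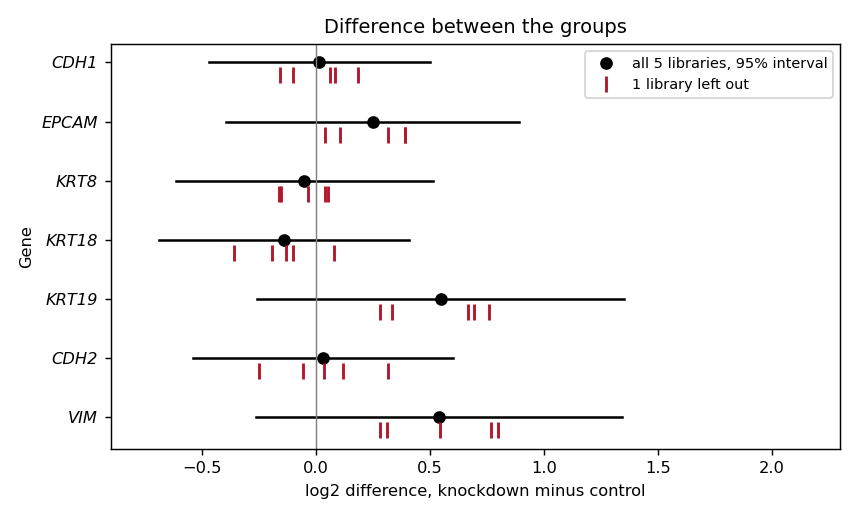
The log2 difference, knockdown minus control, of the 7 genes tested, with the limma 95% interval as a line and the value after leaving out each library in turn as red ticks. All 7 intervals include 0, and the ticks of CDH1, KRT8, KRT18 and CDH2 fall on both sides of it.

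The libraries of a group also differed from each other. Knockdown replicate 3 minus knockdown replicate 1 gave log2 differences of -0.34 for CDH1 and -0.57 for CDH2, and of 0.52 for VIM, 0.43 for KRT19, 0.44 for KRT18, 0.28 for EPCAM and 0.21 for KRT8. The 2 cadherins thus stood lower, and the keratins, VIM and EPCAM higher, in knockdown replicate 3. Across the 15408 genes, which share these libraries and are not independent, this difference had a rank correlation (Spearman) of -0.33 with the length of a gene's exons. With GC content, taken from the longest transcript of each gene, the correlation was 0.20. For the difference of knockdown minus control the same correlations were -0.23 with exon length and 0.27 with GC content. The exons of CDH1 span 6177 bases and those of CDH2 4950, against 2336 for KRT19 and 2519 for EPCAM, though KRT8 with 6881 and VIM with 5158 are long as well. The part of exon length in these differences was not tested.

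KRT19 and VIM are set side by side here as a pair chosen after their values were seen, with no test. Against its own mean over the 5 libraries, KRT19 stood at 0.11 and 0.54 (log2) in knockdown replicates 1 and 3, and at 0.02, -0.75 and 0.08 in controls. VIM stood at 0.06 and 0.58 in knockdown replicates 1 and 3, and at -0.21, -0.67 and 0.24 in controls. Their ratio, KRT19 over VIM, stayed between 2.00 and 2.62, while KRT19 spanned 154 to 378 RPKM and VIM 72.6 to 174 RPKM. The ratio of CDH1 to CDH2 varied less, between 2.94 and 3.48. For KRT19 and for VIM, control replicate 2, the shallowest library, was the lowest and knockdown replicate 3 the highest. EPCAM had the same lowest and highest libraries, at -0.52 in control replicate 2 and 0.29 in knockdown replicate 3.

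**Figure D4:**
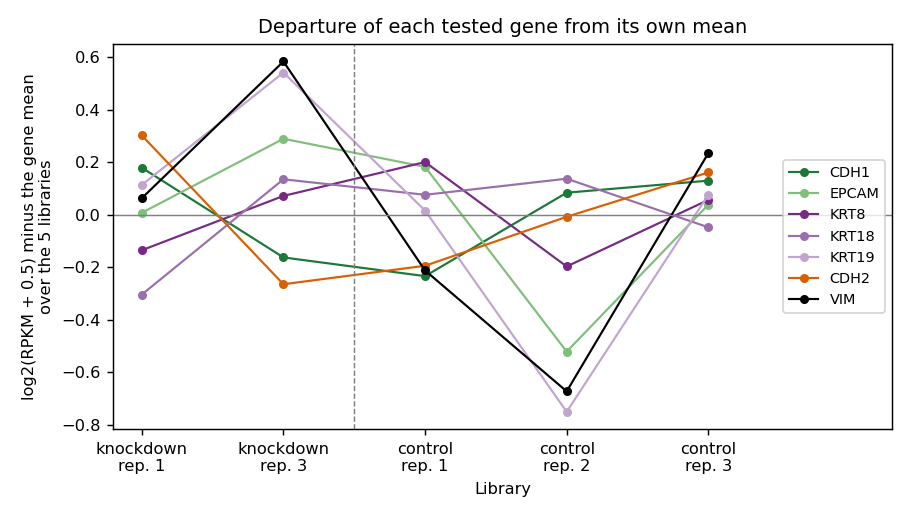
Departure of each of the 7 tested genes from its own mean over the 5 libraries, in log2(RPKM + 0.5), with knockdown libraries left of the dashed line and lines joining the points of 1 gene. VIM and KRT19 run together, at 0.58 and 0.54 in knockdown replicate 3 and at -0.67 and -0.75 in control replicate 2, while CDH1 and CDH2 are lower in knockdown replicate 3 than in knockdown replicate 1.

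Further genes of the 2 states were taken from 11 lists of 159 genes, of which 109 were tested and 0 were called. The log2 difference was above 0 in 54 and below 0 in 55 of these 109, and its median was -0.0057. At an unadjusted p under 0.05, 13 were higher and 7 lower in knockdown, against 3.8% higher and 2.54% lower over all genes tested. Since the lists were written with earlier results of these data known, the counts support nothing by themselves. The medians of the lists also move with single libraries, and each is given with its lowest and highest value when 1 library was left out.

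Adherens junction genes, which tie cadherins to actin, were above 0 for 3 of 11 and below 0 for 8, with a median of -0.25 (-0.082 without knockdown replicate 3, -0.30 without knockdown replicate 1). CTNNB1, the beta-catenin that binds the cadherin tail, was at 34.6 and 32.4 RPKM in knockdown libraries, against 38.2, 39.9 and 42.1 RPKM in controls, so the groups did not overlap, with a log2 difference of -0.25 (SE 0.14). JUP, plakoglobin, its relative in adherens junctions and desmosomes, was at 75.2 and 69.1 RPKM in knockdown libraries, against 61.5, 57.9 and 60.2 RPKM in controls (0.27, SE 0.14). Over all genes tested, both knockdown libraries lay below all controls for 13.6% and above them for 14.3%. NECTIN3, a nectin, differed by -0.61 (SE 0.24) and ARVCF, a catenin of the p120 family, by 0.54 (SE 0.18). Desmosome genes were below 0 for 6 of 7, with a median of -0.25. That median was -0.067 without knockdown replicate 3, with 3 of the 7 above 0, and -0.39 without knockdown replicate 1. PKP2, a plakophilin, was at 10.6 and 7.05 RPKM in knockdown libraries, against 12.9, 13.2 and 17.6 RPKM in controls (-0.70, SE 0.24), while PKP4, DSC2 and PPL differed by -0.29, -0.27 and -0.20. The tested genes of these lists have long exons, a median of 7701 bases for adherens junctions and 7686 for desmosomes, against 4044 over all genes tested. After removal of length and GC trends, the median was -0.14 for adherens junctions and -0.13 for desmosomes.

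Tight junction genes, which seal the space between cells, were above 0 for 10 of 18, with a median of 0.09. It was 0.011 when control replicate 2 was left out, and 0.29 when control replicate 3 was. CLDN7, a claudin, was at 8.76 and 9.43 RPKM in knockdown libraries, against 4.90, 3.71 and 5.18 RPKM in controls, a log2 difference of 0.92 (SE 0.20, limma unadjusted p = 0.00405). CLDN3 was at 14.5 and 17.8 RPKM in knockdown libraries, against 10.4, 5.64 and 9.01 RPKM in controls (0.94, SE 0.29). CLDN4 was at 3.89 and 3.72 RPKM in knockdown libraries, against 2.62, 2.07 and 2.90 RPKM in controls (0.52, SE 0.20). Both knockdown libraries were above all 3 controls for these 3 claudins, named for their small p, and for CLDN6, against 14.3% of all genes tested. The groups overlapped for CLDN9, CLDN12 and CLDN1, and CLDN1, the claudin with the most RNA, was at 275 and 226 RPKM in knockdown libraries, against 275, 292 and 327 RPKM in controls (-0.25, SE 0.19). TJP1, the scaffold ZO-1, was lower in both, at 4.93 and 3.54 RPKM in knockdown libraries, against 6.38, 7.33 and 7.15 RPKM in controls (-0.67, SE 0.20). Both values lay below all controls, which held for 13.6% of all genes tested. CLDN7, CLDN3, CLDN4 and TJP1 did not pass (limma adjusted p = 0.71 for each).

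Regulators of the epithelial state were above 0 for 4 of 10, with a median of -0.09 (-0.24 without control replicate 2, 0.0079 without control replicate 1). ELF3, an epithelial transcription factor of the ETS family, was at 16.8 and 17.6 RPKM in knockdown libraries, against 10.8, 8.92 and 11.4 RPKM in controls (log2 difference 0.71, SE 0.17). KLF4 and CDX2, factors of gut epithelium, differed by 0.79 (SE 0.32) and 0.72 (SE 0.28), and ESRP2, an epithelial splicing regulator, by -0.37 (SE 0.19). Epithelial membrane genes were above 0 for 8 of 12, with a median of 0.20 (0.14 to 0.24 with 1 library left out). SPINT1, an inhibitor of the membrane protease matriptase, was at 45.0 and 45.7 RPKM in knockdown libraries, against 29.2, 27.7 and 29.4 RPKM in controls (0.65, SE 0.13), with values closer within each group than between them. MUC1 and LAMB3 differed by 0.86 (SE 0.34) and 0.64 (SE 0.22), and PROM1, a surface protein of progenitor cells, by -0.62 (SE 0.23). Of the other 13 keratins listed, 3 were tested, KRT23, KRT80 and KRT10, with log2 differences of 0.39, 0.03 and -0.35 (a median of 0.03, and -0.073 to 0.095 with 1 library left out), and KRT5, KRT14 and KRT4 had 0 reads in all 5 libraries.

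**Figure D5:**
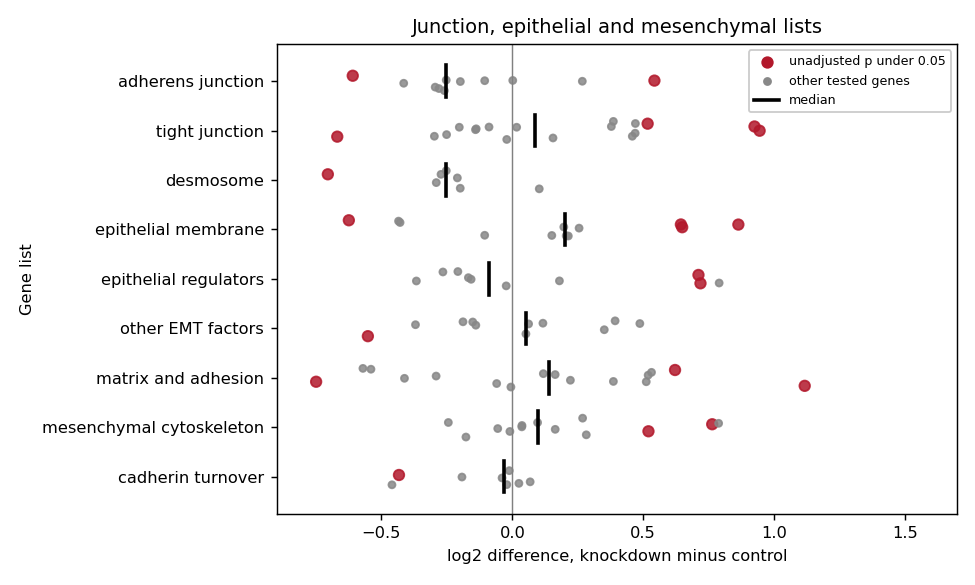
The log2 difference, knockdown minus control, of each tested gene in 9 lists, with the list median as a black bar and in red the genes whose unadjusted p is under 0.05. Adherens junction and desmosome medians lie at -0.25, and those of the other lists between -0.09 and 0.20.

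Mesenchymal matrix and adhesion genes were above 0 for 9 of 16, with a median of 0.14. The median was 0.018 without knockdown replicate 1, 0.19 without control replicate 3, and 0.015 with no filter on low values. LOXL2, an enzyme that crosslinks collagen, was at 9.73 and 7.91 RPKM in knockdown libraries, against 3.30, 3.60 and 4.52 RPKM in controls, the widest log2 difference of the 11 lists at 1.12 (SE 0.20, limma unadjusted p = 0.0020, limma adjusted p = 0.71). ITGA5, a fibronectin receptor subunit, differed by 0.62 (SE 0.20), whereas THBS1, the matrix protein thrombospondin 1, differed by -0.75 (SE 0.27) and COL4A1 by -0.54 (SE 0.25). FN1, fibronectin, was at 194 and 112 RPKM in knockdown libraries, against 186, 299 and 190.2 RPKM in controls, with overlap. Genes of the mesenchymal cytoskeleton and signalling list were above 0 for 9 of 13, with a median of 0.10 (0.047 without control replicate 2, 0.20 without control replicate 3). CAV1, a coat protein of caveolae, was at 23.3 and 23.8 RPKM in knockdown libraries, against 15.9, 15.8 and 17.1 RPKM in controls (0.52, SE 0.13). TIMP1, LGALS1 and TGFBI differed by 0.76 (SE 0.21), 0.79 (SE 0.32) and 0.27 (SE 0.14). Other factors of the transition were above 0 for 6 of 11, with a median of 0.05 (-0.13 without control replicate 2, 0.071 without knockdown replicate 1), and HMGA2, SOX9, ETS1 and ID2 differed by -0.55, -0.37, 0.39 and 0.35. Genes of cadherin shedding and turnover were below 0 for 6 of 8, with a median of -0.03 (-0.15 without knockdown replicate 3, -0.0026 without control replicate 3), and CBLL1, an E3 ligase for E-cadherin, and ADAM10, a protease that sheds it, differed by -0.43 and -0.46. VPS35, a subunit of the retromer that sorts membrane proteins from endosomes, differed by -0.19. Several mesenchymal genes were at or near 0, with CDH11, MMP2 and COL5A1 at 0 reads in all 5 libraries and CD44 with 1 read, in knockdown replicate 1.

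The cell type was checked with marker genes. Hepatocyte markers, 15 of 15 detected at 0.5 RPKM or more, summed to 3297 to 3803 RPKM in knockdown libraries and 2948 to 3523 RPKM in controls, led by ALB. Fibroblast and stellate markers summed to 69.1 to 73.2 RPKM in knockdown and 64.1 to 84.6 RPKM in control, most of it LUM, with THY1 at 0, ACTA2 at 0 to 0.110 RPKM and COL3A1 at 0.111 to 0.157 RPKM in all 5. COL1A2 was at 14.7 and 12.02 RPKM in knockdown libraries, against 8.79, 7.54 and 11.7 RPKM in controls. COL1A1 was at 2.33 and 2.16 RPKM in knockdown libraries, against 1.21, 0.732 and 1.99 RPKM in controls. Both collagen genes were above all controls, as were 14.3% of all genes tested. PDGFRA was below all controls, as were 13.6% of all genes tested. It was at 0.431 and 0.352 RPKM in knockdown libraries, against 0.795, 0.580 and 1.11 RPKM in controls. The groups overlapped for LUM. The labels name a cell line only, and which cells these transcripts came from was not tested. Endothelial markers summed to 0.418 to 0.457 RPKM in knockdown and 0.543 to 0.760 RPKM in control, with KDR, TEK and CLEC4M at 0. Blood and immune markers summed to 47.8 to 54.4 RPKM in knockdown and 46.3 to 52.1 RPKM in control, led by CD14, with CD163, MS4A1, HBB and C1QA at 0 and PTPRC at no more than 0.0713 RPKM. CD3D was at 6.14 and 6.09 RPKM in knockdown libraries, against 4.46, 3.87 and 3.07 RPKM in controls. HBA1 was at 1.55 and 1.89 RPKM in knockdown libraries, against 0.783, 1.23 and 0.672 RPKM in controls. CD3D and HBA1 were thus above all controls, against 14.3% of all genes tested, while LYZ, at 8.59 to 11.6 RPKM, and CD14 overlapped. The bile duct list, which holds KRT19 and EPCAM, summed to 1055 to 1183 RPKM in knockdown and 808 to 1059 RPKM in control, led by CD24. In bulk RNA, fewer cells of a type and less RNA per cell cannot be told apart.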

How the data were processed

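The authors deposited 1 table of RPKM values, 1 column per library; the unit is in the name of the table, which the labels cite. HISAT2 and GRCh38 were used, per the submitters' processing notes, and the read counter with its annotation is not given in the sources used here. GENCODE release 29 held each of the 58676 gene IDs. RPKM times exon length gave whole multiples of 1 step for 100% of values above 0 in 5 libraries (tolerance 0.002 of a read), read as assigned reads. These were 9296308 and 15198231 in knockdown replicates 1 and 3, and 9181567, 1948940 and 19605312 in control replicates 1, 2 and 3.

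The test was limma 3.58.1 in R 4.3.3 (lmFit, then eBayes with trend), a two-sided test on log2(RPKM + 0.5). Genes entered it where 3 or more of the 5 libraries reached 0.5 RPKM, with Benjamini-Hochberg adjustment over all 15408 genes and a threshold of 0.05. Fold changes on this scale understate those of low genes. The members, lists and tests were chosen with earlier results of these data known. All members were named, and from each further list up to 4 tested genes of smallest unadjusted p. One gene that this rule names is not reported here. Others named (KRT7, the factors SNAI1 and ZEB2, FN1, other claudins, single cell type markers, genes at 0) were chosen after their values were seen. The code was tested on simulated data of 15927 genes, drawn with a set dispersion (spread beyond counting error) of 0.02. There the test called 70.7% of those given a 4-fold change and 9.38% of those given a 2-fold one. Whether 0.02 matches the spread among the real libraries was not tested, so these percentages cannot be read as detection rates for them.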

Additional observations from a re-analysis of the deposited data

How the results depend on the processing

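No member passed an adjusted p under 0.05 in any alternative run: pseudocounts of 0.1 and 1, other filters, scalings, no trend, voom, the replicate block, each library left out, and, chosen after seeing the data, length and GC trends removed and pseudogene reads added. Over all genes, the replicate block called 33 higher and 7 lower and voom with sample weights 3 and 1, against 0 and 0. The main test did not take the replicate numbers as pairs. The deviations of same-numbered libraries from their group means correlated at -0.17 (number 1) and 0.02 (number 3). Those of the 2 knockdown libraries are equal and opposite, so these values cannot show whether the numbers are pairs. Under the replicate block KRT19 differed by 0.28 and VIM by 0.31. With each library left out in turn, log2 differences ranged from -0.16 to 0.19 for CDH1, 0.04 to 0.39 for EPCAM, -0.16 to 0.052 for KRT8, -0.36 to 0.080 for KRT18, 0.28 to 0.76 for KRT19, -0.25 to 0.32 for CDH2 and 0.28 to 0.80 for VIM, and 0 genes were called in each direction. CDH1 turned to -0.10 without control replicate 1 and -0.16 without knockdown replicate 1, CDH2 to -0.06 and -0.25, KRT8 to 0.038 and 0.052, and KRT18 to 0.080 without knockdown replicate 1. With all 6 columns as deposited, knockdown replicate 2 among them, the values were -2.11 for CDH1, -2.10 for EPCAM, -2.57 for KRT19, -1.54 for CDH2 and -2.19 for VIM, beside a median of all genes of -0.91. A fit left with 1 knockdown library assumes that it varies like the controls. Depth limits SNAI2, ZEB1 and TWIST1, and control replicate 2 most of all: 3 reads there are 0.757 RPKM of TWIST1.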
